A study of Mus musculus with 66 samples.

Results

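Chromosome 6 of the mouse holds 1104 protein-coding genes in the deposited tables of RNA sequencing, out of 55487 genes of every kind. The 458 of them described here had a mean level of at least 1 TPM, a length-scaled measure of transcript abundance, in the wildtype libraries. Their RNA was compared between wildtype cells and 2 numbered deletions, GDel1 and GDel2, in untreated E14 cells, an established mouse embryonic stem cell line. The wildtype group had 3 libraries, GDel1 had 2 and GDel2 had 2. Both deletion groups carry the genotype label of a G4 deletion at Praf2, G4 standing for a G-quadruplex, a fold of guanine-rich strands. Praf2 itself lies on chromosome X. The cells of all 7 libraries received LIF and serum together with inhibitors of GSK and MEK, so the controls share these agents. Neither the clonal origin of GDel1 and GDel2 nor the use of separate cultures for replicates is stated in the labels, so that p-values measure the spread between these libraries, which may be technical. Of 66 samples in the series, 59 were not used here.

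Chromosome 6 was singled out because its genes were known to be higher in GDel2 than in wildtype in these same libraries. The common rise is therefore given as a description without a test, and the calls for GDel2 against wildtype are read against the rest of the genome only as a description. Departures of single genes from the common ratio come from the same contrast and are a description too. The position of the genes within the chromosome and their promoter sequences did not enter the choice. Medians by position are built from the same ratios, so their height is a description as well. At the lower limit of level, Vwf (0.973 TPM), Gcc1 (0.997) and Srgap3 (0.997) lay just outside, and Sema4f (1.01), Parp12 (1.03) and Clcn1 (1.03) just inside.

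As background, the RNA made from a chromosome tends to scale with the number of its copies in a cell, and single genes can depart from that scale where their own regulators hold or shift their level. Mouse chromosome 6 carries the pluripotency genes Nanog and Gdf3, the imprinted domains of Peg10 and Mest, the proto-oncogene Braf and the housekeeping gene Gapdh. RNA from bulk cultures does not count chromosomes, and more RNA in every cell cannot be told apart from a larger share of cells with more. The number of copies of chromosome 6 in these cells was not analysed here.

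The libraries held between 12316853 and 18762704 expected counts. Transcripts of the mitochondrial genome took 6.30% to 6.89% of counts in wildtype, 9.91% and 4.83% in GDel1, and 6.19% and 9.60% in GDel2. Between replicates, the counts differed by more than sampling noise in every group and by most in GDel1. Praf2 stood at 27.5, 28.8 and 30.6 depth-normalised counts (CPM) in wildtype, at 10.1 and 9.26 CPM in GDel1, and at 13.1 and 14.1 CPM in GDel2, so that both deletion groups lay below wildtype. All 9 markers of embryonic stem cells were at 1 TPM or more in every library, with summed levels from 1675 to 2312 TPM, and 5 of them changed in GDel2 against wildtype. The 8 markers of fibroblast feeders summed to 0.17 to 2.27 TPM, and 4 of them were at 0 throughout. The summed levels were 4.71 to 8.38 TPM for 5 trophoblast markers, 2.23 to 4.34 TPM for 4 neuroectoderm markers and 0.37 to 1.60 TPM for 6 primitive endoderm markers. Of these lists, 3, 2 and 1 genes changed in GDel2, as did 1 feeder marker, and their part in the results was not tested.

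The promoters of 2 genes that rose strongly and 2 that fell are shown first, since the deletion is labelled for a G-quadruplex and sequences that can form one are common near start sites. RefSeq windows of the GRCm38.p6 build, which run from 250 bases before a gene's start to 50 bases after it, were found for 392 of the 458 genes. Where that table gave several start sites for a gene, the one farthest upstream was taken, which can lie inside the span of the gene model. Capitals mark matches to a G-quadruplex motif, 4 runs of GGG or longer with 1 to 7 bases of any kind between them, read on both strands, so that a match on the opposite strand appears as runs of CCC. Mest, an imprinted gene that rose most in GDel2, has 3 start sites in the table, of which the first 2 are shown (chr6:30733256-30733555 and chr6:30737800-30738099, plus strand). Suclg2 had the next largest rise (chr6:95718797-95719096, minus strand). Ldhb, the most abundant gene that fell, and Prickle2, the most abundant by CPM of the 10 largest falls, were picked after their values were seen (chr6:142507908-142508207 and chr6:92706135-92706434, both minus strand).
Mest, first start site: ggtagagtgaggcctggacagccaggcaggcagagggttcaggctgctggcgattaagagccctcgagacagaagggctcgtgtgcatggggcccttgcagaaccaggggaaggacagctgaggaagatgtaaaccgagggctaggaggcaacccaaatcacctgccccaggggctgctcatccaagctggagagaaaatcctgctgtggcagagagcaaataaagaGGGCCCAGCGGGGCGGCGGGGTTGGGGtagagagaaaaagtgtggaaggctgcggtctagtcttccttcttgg
Mest, second start site: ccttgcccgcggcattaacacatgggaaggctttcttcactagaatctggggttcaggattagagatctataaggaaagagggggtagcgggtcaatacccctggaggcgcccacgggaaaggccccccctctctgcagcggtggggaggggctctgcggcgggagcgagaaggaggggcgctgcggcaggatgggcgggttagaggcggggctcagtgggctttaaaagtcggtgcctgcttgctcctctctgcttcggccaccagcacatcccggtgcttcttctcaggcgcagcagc
Suclg2: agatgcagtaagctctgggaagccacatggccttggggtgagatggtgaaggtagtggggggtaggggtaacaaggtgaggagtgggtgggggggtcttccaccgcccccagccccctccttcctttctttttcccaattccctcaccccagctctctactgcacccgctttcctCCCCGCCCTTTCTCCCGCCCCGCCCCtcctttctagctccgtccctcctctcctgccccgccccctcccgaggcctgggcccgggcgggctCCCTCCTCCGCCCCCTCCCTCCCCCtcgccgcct
Ldhb: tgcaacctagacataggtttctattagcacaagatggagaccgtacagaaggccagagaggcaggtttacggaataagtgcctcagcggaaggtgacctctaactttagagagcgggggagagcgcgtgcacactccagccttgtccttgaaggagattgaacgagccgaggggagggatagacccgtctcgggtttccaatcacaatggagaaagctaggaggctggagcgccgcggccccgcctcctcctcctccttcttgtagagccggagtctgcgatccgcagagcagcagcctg
Prickle2: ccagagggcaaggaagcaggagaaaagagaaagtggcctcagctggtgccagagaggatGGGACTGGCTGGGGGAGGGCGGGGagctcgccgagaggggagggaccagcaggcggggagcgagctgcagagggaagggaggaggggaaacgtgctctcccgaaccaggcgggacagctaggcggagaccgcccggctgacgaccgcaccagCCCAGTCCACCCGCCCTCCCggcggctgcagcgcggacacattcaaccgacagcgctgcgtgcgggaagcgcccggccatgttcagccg

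The motif occurred in the windows of Mest at its first start site, of Suclg2 and of Prickle2, and not in those of Ldhb or of Mest at its second start site, so a match was found both in genes that rose and in one that fell. CG dinucleotides numbered 8 in the first window of Mest and 17 in the second, 13 in that of Suclg2, 17 in that of Ldhb and 25 in that of Prickle2. Over the 392 windows, 95 held the motif (24.2%), beside 27.2% of 7193 windows of coding genes at 1 TPM or more on autosomes other than 6 and 8, and 21.2% of all 17492 coding windows in the table. Among genes called higher in GDel2 (by the test given with the counts of calls) it was 44 of 241 windows (18.3%). Among genes called lower it was 10 of 28 (35.7%), and among those at or below the wildtype mean in both GDel2 libraries 21 of 56 (37.5%). The genes called lower are all among the latter, so these shares are not separate. Windows of other chromosomes were not split by change. The median number of CG dinucleotides was 21 in the windows of the higher genes and 17 in those of the lower genes. These groups were defined by the measured change, so the shares are given without a test, and a match is a description of letters and not of a folded structure.

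RNA from chromosome 6 was higher in both GDel2 libraries than in any other library. Its coding genes of every level took 4.14%, 4.16% and 4.13% of counts outside the mitochondrial genome in wildtype and 3.93% and 4.15% in GDel1. In GDel2 they took 5.73% (95% Wilson interval 5.72 to 5.74) and 5.60% (5.58 to 5.61), intervals that cover counting error only. Each of the 458 genes was then given a ratio in each library, its CPM over the wildtype mean, or over the other 2 libraries for a wildtype library. The median ratio was 0.998, 1.01 and 0.989 in the wildtype libraries, 1.03 and 0.986 in GDel1, and 1.40 and 1.43 in GDel2. The median over all genes tested was 0.998 and 1.01 in the same GDel2 libraries. As the mean of the 2 GDel2 libraries, the median log2 ratio was 0.50 from counts and 0.41 from TPM. The median log2 fold change over the genes was 0.50 by edgeR and 0.37 by limma on log2(TPM + 1), a scale that understates the change of low genes. For genes of the other autosomes the median in GDel2 was lower by limma too, at -0.12 against -0.06 by edgeR.

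**Figure D1:**
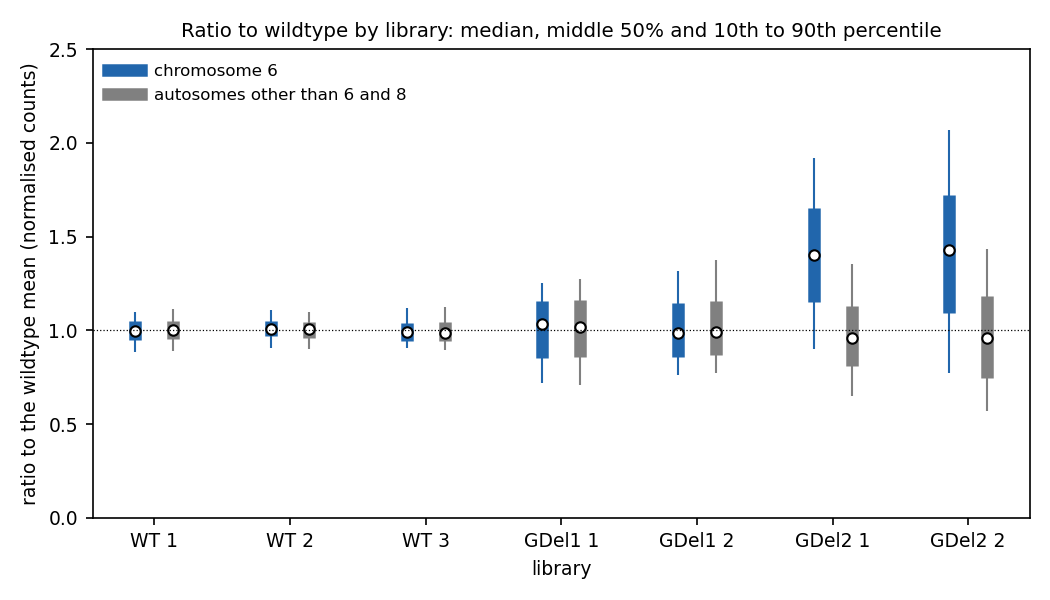
Ratio of each gene's normalised count to the wildtype mean (vertical axis) in each of the 7 libraries, for the 458 chromosome 6 genes and for 8748 coding genes of autosomes other than 6 and 8. Circles are medians, thick bars the middle 50% of genes and thin lines the 10th to 90th percentile. The chromosome 6 medians stand at 1.40 and 1.43 in GDel2 and between 0.986 and 1.03 elsewhere.

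The spread of the ratios among the genes was wide. In GDel2 replicate 1 the middle 50% of genes lay between 1.15 and 1.65 and the 10th and 90th percentiles at 0.899 and 1.92. In replicate 2 the middle 50% lay between 1.09 and 1.72, with the 10th and 90th percentiles at 0.771 and 2.07. Ratios from 1.25 to 1.75 were held by 47.8% of the genes in replicate 1 and by 39.96% in replicate 2, and ratios above 2 by 35 and 58 genes. The interquartile range of the log2 ratio was 0.52 and 0.66 on chromosome 6 and 0.48 and 0.67 on the other autosomes. Across the 458 genes, which are not independent replicates, the log2 ratios of the 2 GDel2 libraries had a Pearson correlation of 0.93, and both share the wildtype mean as denominator. Across genes of the other autosomes the correlation was 0.87.

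Among the other chromosomes, chromosome 8 had medians near those of chromosome 6 (1.37 and 1.33 in GDel2, 540 genes). The medians of the remaining 17 autosomes and X lay between 0.906 and 1.06 in GDel2 replicate 1 and between 0.852 and 1.11 in replicate 2. In GDel1, chromosome 6 lay within the range of those 18 chromosomes in both libraries (0.978 to 1.13 and 0.962 to 1.06).

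**Figure D2:**
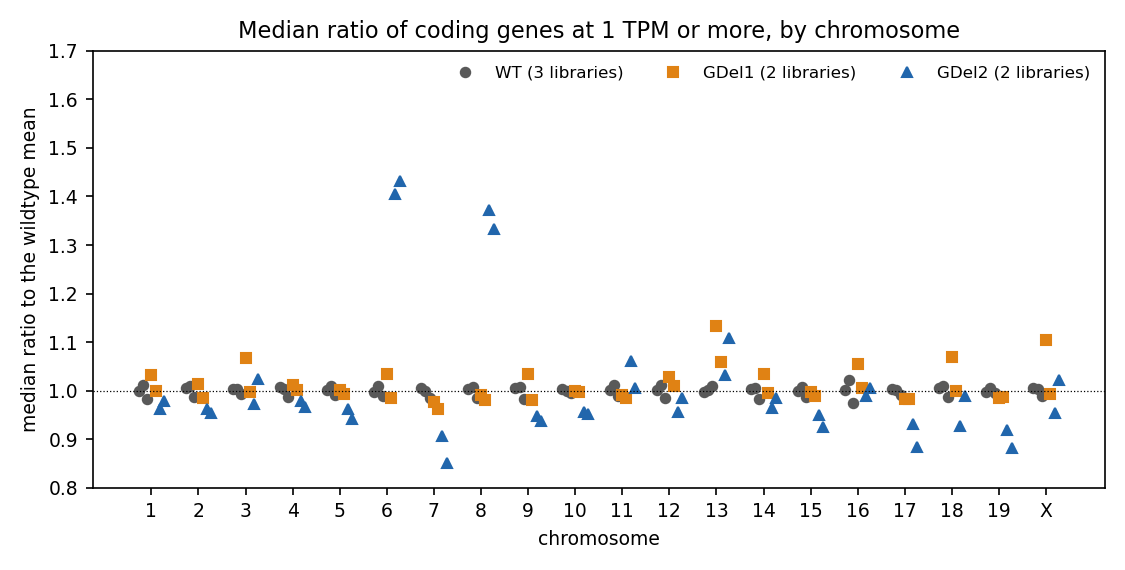
Median ratio to the wildtype mean (vertical axis) of coding genes at 1 TPM or more on each chromosome (horizontal axis), with 1 point per library. The GDel2 points of chromosomes 6 and 8 lie between 1.33 and 1.43, above every other chromosome in the plot.

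In the fit over all 15421 genes tested, edgeR's quasi-likelihood test with Benjamini-Hochberg adjustment called 283 of the 458 genes higher in GDel2 than in wildtype and 31 lower, at an adjusted p under 0.05. The background over all genes tested was 17.4% higher and 15.6% lower. The remaining 144 genes did not pass, which does not show that they were level. Both GDel2 libraries lay above all 3 wildtype libraries for 341 genes (32.2% of all genes tested did so) and below all 3 for 50 (31% of all genes tested). The call of higher held in each of the 7 fits that left out 1 library for 184 genes (7.88% of all genes tested), and the call of lower for 22 (6.63%). A change of at least 2-fold was called for 42 genes upward (6.04% of all genes tested) and 15 downward (4.74%). With TPM and limma, 123 genes were called higher and 23 lower.

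The genes that rose most had varied roles. Mest (ENSMUSG00000051855, chr6:30733506-30748466 by RefSeq GRCm38.p6) encodes a hydrolase-like membrane protein and is expressed from the paternal chromosome in many tissues. It stood at 30.2, 31.5 and 30.4 CPM in wildtype, 32.4 and 28.1 CPM in GDel1, and 262 and 284 CPM in GDel2. Both GDel2 libraries lay far above the other 5, which overlapped each other, and the change was 8.88-fold (log2 fold change 3.15 ± 0.09 SE, adjusted p = 3.42e-07). Suclg2 (ENSMUSG00000061838, chr6:95473009-95718858), the beta subunit of the succinyl-CoA ligase that forms GTP in the citric acid cycle, stood at 18.4, 20.1 and 19.9 CPM in wildtype, 16.2 and 17.1 CPM in GDel1, and 116 and 118 CPM in GDel2. GDel1 lay just below wildtype and GDel2 far above both, 6.02-fold over wildtype (2.59 ± 0.09, adjusted p = 7.76e-07).

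Smo, the membrane protein that passes on the Hedgehog signal, stood at 13.2, 12.0 and 12.3 CPM in wildtype, 16.7 and 12.0 CPM in GDel1, and 38.7 and 40.3 CPM in GDel2 (3.17-fold, adjusted p = 8.31e-05). Trnt1 adds the CCA end to transfer RNAs. It went from 41.2, 39.2 and 39.6 CPM in wildtype to 118 and 145 CPM in GDel2, with GDel1 at 47.6 and 45.5 CPM. For both genes GDel2 lay above all 5 other libraries. Other large log2 rises were those of Mdfic, a modulator of transcription factors (2.40), Pianp, a membrane protein of neurons (2.22), Zfp800, a zinc finger gene (1.77), and Cntnap2, an adhesion molecule of the neurexin family (1.74). Tuba3a, an alpha-tubulin, also rose (2.08), but reads shared with its near-identical copy Tuba3b could have been split by the counting. These 9 calls held in each fit without 1 library.

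The 10 genes that fell most were of low level, from 1.09 to 5.03 TPM in wildtype. The most abundant of the 31 genes that fell was Ldhb (ENSMUSG00000030246, chr6:142490249-142507957), at 291 TPM. It encodes the B subunit of lactate dehydrogenase, and stood at 191, 193 and 197 CPM in wildtype, 233 and 253 CPM in GDel1, and 92.2 and 86.7 CPM in GDel2. The 3 groups did not overlap, with GDel1 highest and GDel2 lowest, and GDel2 was 2.16-fold below wildtype (log2 fold change -1.11 ± 0.09 SE, adjusted p = 5.75e-05). Prickle2 (ENSMUSG00000030020, chr6:92370891-92706334), a protein of planar cell polarity, stood at 28.9, 26.6 and 25.9 CPM in wildtype, 22.4 and 22.0 CPM in GDel1, and 8.05 and 8.17 CPM in GDel2 (3.35-fold lower, adjusted p = 2.38e-05). Nod1, a sensor of bacterial cell wall fragments, had the largest fall, from 3.24, 4.14 and 3.83 CPM to 0.710 and 0.506 CPM (log2 fold change -2.62 ± 0.31 SE, adjusted p = 0.000449), with GDel1 at 3.14 and 2.13 CPM.

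Enzymes and lipid-handling proteins among the falls were Mgll, the monoacylglycerol lipase (-2.08 on the log2 scale), Osbpl3, an oxysterol-binding-protein relative (-1.85), Pdk4, a kinase that inhibits pyruvate dehydrogenase (-1.63), and C1s1, a protease of the complement system (-1.95). Gata2, a transcription factor of blood and trophoblast lineages, fell from 4.78, 3.90 and 5.20 CPM to 1.42 and 1.23 CPM (-1.80), with GDel1 at 4.11 and 5.36 CPM. Arhgdib, an inhibitor of small GTPases, fell as well (-1.43), as did Ccdc136 (-2.09) and Fam221a (-1.94). All 10 of the largest falls, and Ldhb, kept their call in each fit without 1 library.

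**Figure D3:**
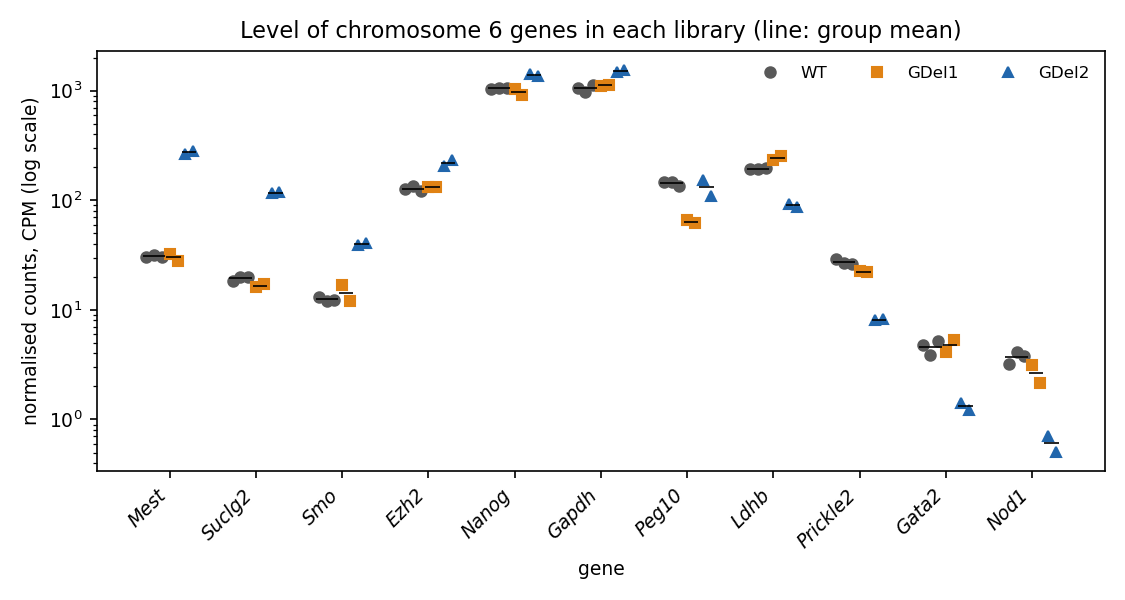
Normalised counts (CPM, log scale) of 11 chromosome 6 genes in each library, with a line at each group mean. Mest, Suclg2 and Smo are highest in GDel2, Ldhb, Prickle2, Gata2 and Nod1 are lowest there, and Peg10 is lowest in GDel1.

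A list of pluripotency and associated genes had 5 measured on chromosome 6, and 5 were called higher in GDel2. The share called higher was 61.8% over the 458 genes. Slc2a3 was counted in the glycolysis list as well. The pluripotency list was made by hand and does not cover all such genes on the chromosome. Tcf7l1 and Podxl, which it left out, were at or below the wildtype mean in both GDel2 libraries. Nanog, a core factor of the naive state, stood at 1038, 1054 and 1050 CPM in wildtype, 1023 and 918 CPM in GDel1, and 1405 and 1354 CPM in GDel2 (1.32-fold, adjusted p = 0.00956, and adjusted p = 0.0531 without wildtype replicate 1). Gdf3, a ligand of the TGF-beta family, rose from 126, 120 and 123 CPM to 207 and 219 CPM (adjusted p = 0.00644, and adjusted p = 0.0580 without GDel2 replicate 2). Slc2a3, a glucose transporter, rose 1.20-fold and Tead4 1.30-fold, and both passed in only 2 of the 7 fits that left out 1 library. The tetraspanin gene Cd9 rose 1.59-fold and passed in 5. The median ratio of the 5 genes was 1.41 and 1.29 in the 2 GDel2 libraries.

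Genes listed as imprinted, which can be read from 1 parental copy, differed among themselves. Which parental copies were read in these cells was not analysed here. Of 6 measured, Mest, Copg2, Casd1 and Ppp1r9a rose, Herc3 fell and Peg10 did not pass. Copg2, a coat protein subunit of COPI vesicles, overlaps Mest and rose 1.85-fold, against 8.88-fold for Mest. By RefSeq positions, Mest ends at chr6:30748466 and Copg2 spans chr6:30747554-30896815, so they share only a short stretch. Which strand was counted is not stated, so reads within that stretch cannot be told apart. Peg10, which derives from a retrotransposon, stood at 146, 145 and 136 CPM in wildtype and at 154 and 109 CPM in GDel2, on both sides of the wildtype range. Its neighbour Casd1, which acetylates sialic acids, rose 1.69-fold, and Ppp1r9a, the neuronal scaffold neurabin, rose 2.30-fold. Herc3, a ubiquitin ligase, was 1.56-fold lower.

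From a list of translation genes, 8 were measured and 8 rose, with median ratios of 1.66 and 1.66. The list was made by hand and leaves out other such genes of the chromosome, Mrps35 and Eefsec among them. Rpl32, a ribosomal protein, went from 188, 205 and 209 CPM in wildtype to 335 and 331 CPM in GDel2, and GDel1 was at 252 and 356 CPM, so that GDel1 and GDel2 overlapped. Gars, the glycyl-tRNA synthetase, went from 271, 293 and 275 CPM to 481 and 426 CPM, above GDel1 at 224 and 252 CPM. The mitochondrial ribosomal genes Mrpl19, Mrpl35 and Mrps25 rose 1.87-, 1.78- and 1.64-fold. Mrps33, Mrpl53 and Mrpl51 were also called, but each in 2 of the 7 fits without 1 library.

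From a list of cell cycle and DNA replication genes, 11 were measured, of which 8 rose and none fell. The list does not cover all genes of DNA repair on the chromosome. Fancd2, of the Fanconi anaemia pathway, rose 1.87-fold, Ruvbl1, a DNA helicase subunit of chromatin complexes, 1.85-fold, Rad18, a ubiquitin ligase at stalled forks, 1.75-fold, and Mcm2, of the replicative helicase, 1.37-fold. Mad2l1, a spindle checkpoint protein, rose 1.69-fold and lost its call without wildtype replicate 3 or GDel2 replicate 2 (highest adjusted p = 0.115). Rad52 and Cdca3 were called too, but in only 3 and 2 of the 7 fits without 1 library. The 3 that did not pass were Ncapd2 (1.01-fold), Foxm1 (0.935-fold) and Cdkn1b (1.21-fold). Of 5 genes of growth factor signalling 3 rose and 0 fell, among them the kinase gene Braf at 1.44-fold, close to the common ratio.

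Chromatin regulators were split, with 7 of 15 higher and 0 lower. Ezh2, the methyltransferase of Polycomb complex PRC2, went from 125, 134 and 121 CPM to 203 and 231 CPM (1.71-fold), with GDel1 at 133 and 133 CPM. Cbx3, a heterochromatin protein, rose 1.73-fold, and the histone demethylase Kdm5a 1.45-fold. Phc1, a Polycomb PRC1 subunit, stood at 365, 346 and 332 CPM in wildtype and 323 and 240 CPM in GDel2, while Chd4, the remodeller of the NuRD complex, stood at 388, 392 and 371 CPM and 365 and 296 CPM. GDel1 was at 194 and 238 CPM for Phc1 and at 305 and 417 CPM for Chd4. In both genes, GDel2 lay below every wildtype library without passing the test (adjusted p = 0.125 and 0.280). Trim24 and Hdac11 were likewise at or below the wildtype mean in both GDel2 libraries.

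In a list of glycolysis and related genes, 4 of 7 rose, Ldhb fell, and neither Tpi1 nor Eno2 passed. The 4 were Gapdh, Hk2 and, from outside the glycolytic enzymes, Slc2a3 and Akr1b3. Gapdh stood at 1051, 977 and 1121 CPM in wildtype, 1110 and 1120 CPM in GDel1, and 1491 and 1544 CPM in GDel2 (1.45-fold, adjusted p = 0.00294), so that this commonly used reference gene lay close to the common ratio of chromosome 6. Hk2, a hexokinase, rose 1.58-fold and the aldose reductase gene Akr1b3 1.33-fold. Tpi1, the triosephosphate isomerase, was at 1.13-fold and did not pass (adjusted p = 0.238). A mixed list of 7 mitochondrial and other metabolic genes held 5 that rose. Among them were Immt, which shapes cristae (1.53-fold), and Suclg1, the alpha subunit that partners Suclg2 (1.67-fold against 6.02-fold). Aldh1l1, an enzyme of folate metabolism, fell (-0.71 on the log2 scale, adjusted p = 0.0224) and kept its call in 3 of the 7 fits without 1 library. Among the rises, Ndufa4 and Ndufa5 kept theirs in 2 and 3. Of 9 RNA processing genes 6 rose and none fell. The lists were made by hand and need not cover all genes of their kind on the chromosome. Their counts stand beside the 61.8% of the 458 genes that were called higher and the 6.77% called lower. Over all genes tested the shares were 17.4% and 15.6%.

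A second test asked of each gene whether its GDel2 ratio differed from the common ratio, a log2 fold change of 0.50 (1.42-fold), rather than from wildtype. It called 97 genes above the common ratio and 114 below it. The background over all genes tested was 5.95% above and 51.9% below, since most genes of other chromosomes lie near a ratio of 1, which also makes the adjustment lenient. All 97 genes above the common ratio were among the 283 called higher than wildtype, and 181 of those 283 did not differ from the common ratio by this test. Of the 144 genes not called against wildtype, 78 were below the common ratio and 66 passed neither test. The calls in both directions came to 211 (57.9% of all genes tested), and to 123 without GDel2 replicate 2 and 113 with TPM and limma. The genes closest to the common ratio included Smarcad1, a chromatin remodeller, Resf1, a silencing factor of retroviral repeats, and Phb2, a mitochondrial prohibitin. Phb2 stood at 195, 195 and 194 CPM in wildtype, 192 and 201 CPM in GDel1, and 293 and 261 CPM in GDel2 (1.42-fold).

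Genes without the common rise were defined as those at or below the wildtype mean in both GDel2 libraries. There were 62 such genes of 458 (13.5%), against 40.2% of all genes tested, 47.2% of 8748 genes on autosomes other than 6 and 8, and 10.9% of 540 genes on chromosome 8. Of the 62, 31 were called lower than wildtype and 31 were not called. For another 38 genes 1 GDel2 library lay above the wildtype mean and the other did not, and 358 genes were above it in both (40.8% of all genes tested were). The 62 were spread along the chromosome in 50 runs of neighbouring genes: 40 single genes, 8 pairs and 2 runs of 3. The runs of 3 were Sema4f, M1ap and Dok1, and Ptms, Mlf2 and Cops7a. Ptms, which encodes parathymosin and was the second most abundant gene at 355 TPM, stood at 255, 231 and 230 CPM in wildtype, 152 and 132 CPM in GDel1, and 227 and 171 CPM in GDel2, so GDel1 was the lowest group.

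Genes next to those with large changes took different values. Upstream of Mest, Cep41 at a distance of 23.0 kb had GDel2 ratios of 1.89 and 1.59, and Tmem209 beyond it 2.08 and 2.25. Downstream, the overlapping Copg2 had 1.72 and 1.99, and Mkln1, 650 kb away, 1.15 and 1.26. Suclg2 lies between Kbtbd8 (1.95 and 2.55) and Eogt (1.69 and 1.77), all 3 of them higher than in wildtype. Ldhb lies 76.4 kb from Golt1b (1.58 and 1.73) and 249 kb from Cmas (1.80 and 2.01), both of which rose while Ldhb fell. St8sia1, beyond Cmas, was lower too (0.862 and 0.830, adjusted p = 0.0475). Nod1 lies between Znrf2 (1.22 and 1.25) and Ggct (0.969 and 1.17). Prickle2 was flanked by Trh (1.91 and 1.95) on one side and on the other, 66.4 kb away, by Adamts9, a protease of the extracellular matrix that also fell (0.682 and 0.675).

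**Figure D4:**
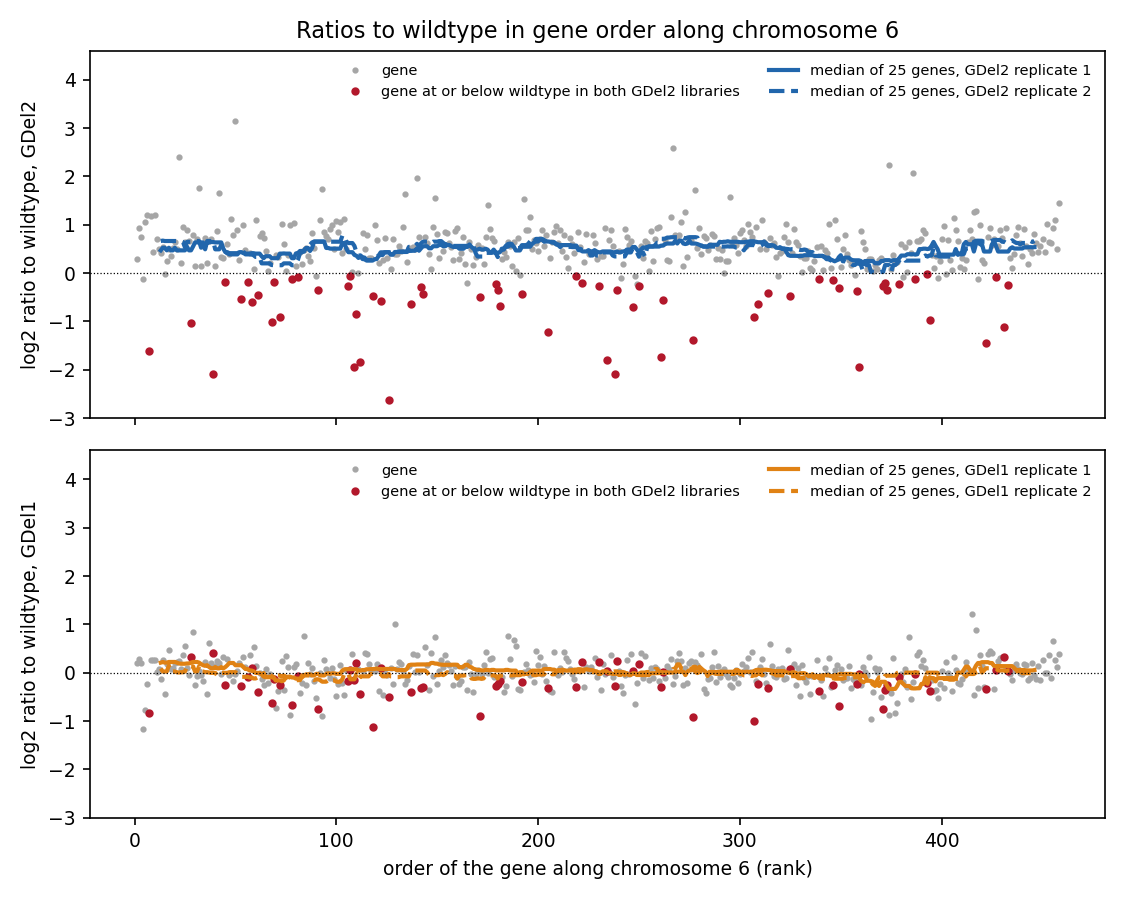
Log2 of the mean ratio to wildtype over both libraries of GDel2 (upper panel) and GDel1 (lower panel) for the 458 genes, in their order along chromosome 6. Lines are medians over 25 neighbouring genes in each library and red points are the 62 genes at or below wildtype in both GDel2 libraries, which lie scattered along the order; 1 gene at 0 in a GDel1 library is averaged with the other library.

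By position, medians above 1 in GDel2 ran along the whole chromosome. In 10-Mb bins, all 15 had a median ratio above 1 in both GDel2 libraries. Of 434 windows of 25 neighbouring genes, 434 had medians above 1 in both libraries, and 82.5% had medians above 1.25 in both. On chromosomes other than 6 and 8, 22.7% of 8638 such windows were above 1 in both and 2.65% above 1.25. Chromosome 11 alone had 24.5% of its 801 windows above 1.25 in both. Without it, the share on the remaining chromosomes was 0.42% of 7837 windows. On chromosome 8, all 516 windows were above 1 in both, as on chromosome 6, and 63.0% were above 1.25 in both. The windows of chromosome 6 ranged from 1.15 to 1.63 in GDel2 replicate 1 and from 1.01 to 1.71 in replicate 2. The highest window stood at 1.05, 1.04 and 1.07 in wildtype and at 1.17 and 1.13 in GDel1. All of these lay above the lowest window of GDel2 replicate 2. Neighbouring windows share most of their genes and are not separate observations.

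The lowest bin was that from 120 to 130 Mb, with 67 genes, medians of 1.24 and 1.17 in GDel2, and 27 genes called higher (40.3%). It held 12 of the 62 genes without the rise, Ptms, Mlf2, Cops7a, Phc1 and Chd4 among them. By the mean of both GDel2 libraries, the lowest window, from Pex5 to Iffo1 (chr6:124396816-125161783), had medians of 1.15 and 1.01 in GDel2. GDel1 was also low there, at 0.828 and 0.937, against 1.02, 1.00 and 0.951 in wildtype. By the same mean, 4 overlapping windows tied as the highest. The first of them, from Ccdc174 to Setmar (chr6:91843154-108077127), had medians of 1.59 and 1.67 in GDel2 and 1.02 and 1.06 in GDel1. These extremes were chosen after their values were seen and were not tested.

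The median ratio hardly differed with the level of a gene in wildtype. With the genes ranked by wildtype TPM and split into 3 groups of like size, the median ratios were 1.40 and 1.43 in the lowest group (1.01 to 5.16 TPM), 1.41 and 1.40 in the middle group, and 1.40 and 1.48 in the highest group (19.1 to 671 TPM). The share called higher went from 48.4% to 64.5% and 72.5%, and the share called lower from 12.4% to 5.26% and 2.61%. The interquartile range of the log2 ratio in GDel2 replicate 1 was 0.86 in the lowest group and 0.45 in the highest, and the precision of a ratio also falls with its counts. Split likewise by genomic length, the longest genes (46.3 kb or more) had medians of 1.32 and 1.33 in GDel2, against 1.48 and 1.54 in the middle group and 1.43 and 1.39 in the shortest. The longest genes were also lowest in GDel1 (0.987 and 0.950) and, on the other autosomes, in GDel2 replicate 1 (0.939). In GDel2 replicate 2 the shortest genes of the other autosomes were lowest (0.943, against 0.953 for the longest).

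**Figure D5:**
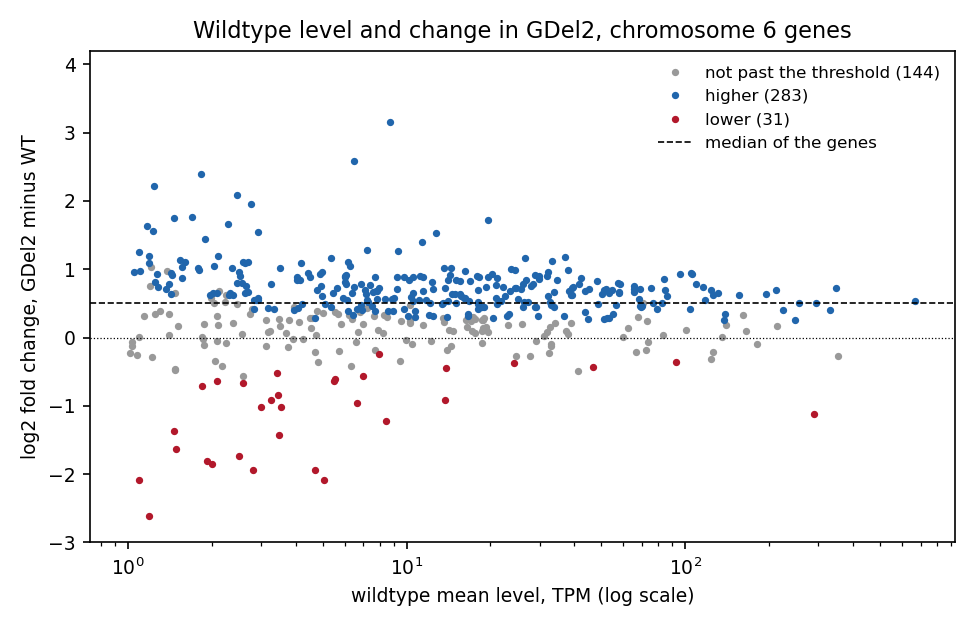
Log2 fold change of GDel2 against wildtype (vertical axis) by mean wildtype level in TPM (horizontal axis, log scale) for the 458 genes. Genes called higher (283), lower (31) and not called (144) are coloured, the dashed line is the median of 0.50, and Ldhb is the gene called lower that lies farthest to the right, at 291 TPM.

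GDel1, which carries the same genotype label, was compared with the same wildtype libraries, so its values are not independent of those above. edgeR called 1 of the 458 genes higher in GDel1 (0.162% of all genes tested) and 2 lower (0.214%), 3 in all (0.376%). Both GDel1 libraries lay above all wildtype libraries for 113 genes (20.9% of all genes tested) and below all of them for 114 (22.6%). Emp1, an epithelial membrane protein, stood at 11.1, 12.9 and 11.5 CPM in wildtype, 21.7 and 22.2 CPM in GDel1, and 27.3 and 30.6 CPM in GDel2, with no overlap among the groups (GDel1 log2 fold change 0.89, adjusted p = 0.0249). On TPM with limma its GDel1 value was -0.16. Peg10 was at 65.6 and 61.3 CPM in GDel1, under all 5 other libraries (-1.17, adjusted p = 0.0227). Leaving out 1 library ended the call of Emp1 in 4 of 7 fits and that of Peg10 in 3.

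The count of 3 genes in GDel1 was itself unstable. It was 40 with DESeq2, 70 without a filter on low counts and 87 with TPM and limma, and without GDel1 replicate 1 or replicate 2 it was 80 or 26, in fits where the lone GDel1 library is assumed to vary like the other groups. Without any 1 wildtype library it was 0, and without GDel2 replicate 1 it was 1. The 2 GDel1 libraries also differed in mitochondrial share (9.91% and 4.83%), whose part in this was not tested, and the median of the 458 genes stayed near 1 in each.

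Set against GDel1 directly, 255 of the 458 genes were higher in GDel2 and 22 lower (14.8% and 12.8% of all genes tested), 277 in all (27.7%). Of the 283 genes higher than wildtype, 227 were also higher than GDel1, and of the 31 lower than wildtype, 20 were also lower than GDel1. Both comparisons use the same GDel2 libraries. Mest (log2 fold change 3.18), Pianp (3.07) and Suclg2 (2.81) were farthest above GDel1, and Ccdc136 (-2.52), Nod1 (-2.09) and C1s1 (-1.92) farthest below.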

How the data were processed

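Total RNA was extracted with Trizol, depleted of ribosomal RNA and sequenced from 7 libraries, per the labels' protocols. The submitters' processing notes name STAR and RSEM among their tools and mm10 as the build, with no version. The authors deposited 1 table per library with expected counts, TPM and FPKM for 55487 genes, per the file headers. FPKM values were deposited but not used here. No source used here gives the annotation release or the strand counted.

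Expected counts were rounded, filtered (filterByExpr, minimum count 10 and total 15, which left 15421 genes) and scaled by TMM. All 3 groups were fitted in 1 model with edgeR 4.0.16 (robust quasi-likelihood test, R 4.3.3), with Benjamini-Hochberg adjustment over all genes tested and a threshold of 0.05. CPM are TMM-scaled. The test against the common ratio raised the GDel2 offsets by the members' median log2 fold change of 0.50. Alternatives used DESeq2 1.42.0, limma 3.58.1 on log2(TPM + 1), other filters and scalings, and each library left out. The scripts were tested on simulated data. Positions came from RefSeq GRCm38.p6 by symbol (37984 genes directly and 515 by synonym).

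Named genes were the 10 largest rises and falls, the most abundant genes, those nearest the common ratio, those at the TPM limit, the largest changes in the other contrasts, and members of gene lists. Neighbours of changed genes, Chd4, Phc1 and other genes outside this rule were picked after their values were seen. The members and lists were chosen with earlier results of these data known. Some genes that this rule picks are not reported here.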

Additional observations from a re-analysis of the deposited data

Results flagged for a closer look

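The 2 deletion groups carry the same genotype label, and the test of GDel2 against GDel1 found a difference in 277 of the 458 chromosome 6 genes at an adjusted p under 0.05 (edgeR's quasi-likelihood test). The difference of the log2 fold changes, GDel2 minus GDel1, is given for the named genes that passed. It was largest in Mest (3.18), Pianp (3.07), Suclg2 (2.81), Cntnap2 (2.66), Tuba3a (2.24), Mdfic (2.18), Zfp800 (1.73), Trnt1 (1.50), Smo (1.47), Ppp1r9a (1.42) and Peg10 (1.05). The next were Cnot4 (0.98), Gars (0.93), Gdf3 (0.90), Copg2 (0.86), Ing3 (0.79), Braf (0.77), Hk2 (0.75), Mad2l1 (0.74), Fancd2 (0.72) and Ezh2 (0.71). Smaller differences were found in Rad18 (0.69), Mrpl35 (0.64), Lsm3 (0.63), Mrpl19 (0.62), Mrps25 (0.58), Rad51ap1 (0.57), Ddx47 (0.56), Casd1 (0.55), Rybp (0.55), Rad52 (0.54), Tead4 (0.53), Ruvbl1 (0.51) and Nanog (0.51), and in Phb2 (0.50), Smarcad1 (0.49), Ptms (0.49), Immt (0.45), Mbd4 (0.45), Gapdh (0.44), Mcm2 (0.42), Emp1 (0.40), Resf1 (0.39), Cbx3 (0.39) and Paip2b (0.30). GDel2 was below GDel1 in Ccdc136 (-2.52), Nod1 (-2.09), C1s1 (-1.92), Gata2 (-1.85), Mgll (-1.81), Fam221a (-1.78), Prickle2 (-1.45), Ldhb (-1.44), Osbpl3 (-1.40), Arhgdib (-1.09), Pdk4 (-0.80) and Aldh1l1 (-0.75). Peg10 and Ptms, which were lowest in GDel1, did not pass the test of GDel2 against wildtype.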

How the results depend on the processing

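The median log2 ratio of the chromosome 6 genes in GDel2 was above 0 under all the alternatives run, while the counts of calls moved. The replicate numbers do not pair the samples (correlations of same-numbered deviations from -0.21 to 0.10). With the replicate block, 172 genes were higher and 20 lower in GDel2, 0 differed in GDel1, 160 differed between GDel2 and GDel1, and 110 differed from the common ratio. Crossing the numbers, an alternative chosen after seeing the data, gave 261 genes between GDel2 and GDel1. With limma on TPM, 123 genes were higher, 87 differed in GDel1 and 113 from the common ratio, and the median log2 fold change was 0.37 in GDel2 and -0.40 in GDel1, where that of all genes stood at -0.30. As ratios of TPM, the medians were 0.41 and -0.46. The GDel1 value of Emp1 turned to -0.16 there. The median log2 ratio of GDel2 was 0.48 without a filter, 0.55 with TMM from genes off chromosomes 6, 8, 11 and Y, and 0.47 from summed counts. Among genes at 5 TPM or more, 13 were lower, 29 lacked the rise and 136 differed from the common ratio. The 3 genes called in GDel1 became 40 with DESeq2, 70 without a filter, 1 with only the 2 groups fitted and 164 without the 2 libraries of high mitochondrial share. With only the 2 groups fitted, 147 genes differed between GDel2 and GDel1. A library left alone in its group was assumed to vary like the others. Leaving out 1 library gave 0 to 80 genes in GDel1 and 123 to 258 against the common ratio, a log2 fold change of -0.40 to 0.11 for Peg10 in GDel2 and of -0.19 to 0.039 for Clcn1. Peg10 stood at 0.12 without the libraries of high mitochondrial share. Of 1215 values for named genes under 15 alternatives, 1054 kept direction and side of the threshold, 150 lost the call, 7 gained it and 4 changed sign. The cause of these shifts was not tested. Depth limits the genes of low level most.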

Other observations

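Chromosome 6 coding genes below 1 TPM in wildtype also held large rises in GDel2. Of 646 such genes, 125 passed the filter on low counts, and edgeR called 44 of them higher and 10 lower (17.4% and 15.6% of all genes tested were), while 521 were not tested. Since a gene can pass that filter through the group in which it is high, these counts do not describe all 646. Ccnd2, which encodes the G1 cyclin D2, stood at 0.221, 0.371 and 0.315 CPM in wildtype, 0.322 and 0.104 CPM in GDel1, and 17.99 and 21.5 CPM in GDel2. Foxp1, a forkhead transcription factor, stood at 1.99, 2.16 and 2.68 CPM in wildtype, 1.53 and 1.82 CPM in GDel1, and 19.6 and 23.3 CPM in GDel2. Tet3, an enzyme that oxidises methylcytosine, stood at 6.92, 6.49 and 5.41 CPM in wildtype, 3.94 and 5.98 CPM in GDel1, and 24.8 and 18.7 CPM in GDel2. In these 3 genes both GDel2 libraries lay above the other 5. They were picked after their values were seen.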
